A study of Mus musculus with 42 samples.

Results

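The comparison set the methylation of 3 libraries from the high paternal dose of DEHP against that of 3 libraries from the vehicle control, over every tile of the deposited methylation table. DEHP is a phthalate used to soften plastics. A tile is a fixed stretch of 100 bp, and its value is the percent of methylated cytosines read at its CpG sites. All 141251 tiles were used, of 141251 in the table, and the 6 libraries are part of 9, the other 3 being from a low dose.

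The exposed males were wild type C57BL/6 mice, 8 weeks old at the start, that received 25 mg/kg/day of DEHP for 67 days, and the controls received the vehicle alone over the same period. Females that were never exposed were mated with these males. Reduced representation bisulfite sequencing (RRBS) samples were listed for sperm of the males at 14 weeks of age, and for embryonic and extra-embryonic tissue of wild type C57BL/6 * DBA/2J offspring at embryonic day 7.5. An exposure of 67 days from 8 weeks of age would end later than 14 weeks, and the labels do not resolve this. The labels list 42 samples, 30 of them RRBS: 4 sperm, 3 embryonic and 3 extra-embryonic samples in the high group, and the same numbers in the low group and in the control group. The 9 columns of the table carry a dose group and a number but no tissue, so each column could be placed in a group and not matched to a sample. The low columns (2.5 mg/kg/day) entered the fit that estimates the spread and are given beside the results where they bear on them.

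In mammals a methyl group is placed on cytosine where it is followed by guanine (CpG). Most isolated CpGs in the genome are methylated, whereas dense clusters of them at gene starts, the CpG islands, are usually free of methylation, and methylated islands go with silent genes. Most marks are erased and rewritten in germ cells. In the early embryo this happens again, except at imprinted regions, where the mark of a parent is kept on its copy. RRBS cuts DNA at a site that contains a CpG, so it reads mainly CpG-rich DNA.

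No read coverage stands beside the percentages, so the depth behind each tile is unknown and no interval can be given for a single value. The RefSeq promoter sequences of GRCm38.p6 gave the letters of 10634 tiles, and 100% of these held a CpG, against 93.8% or less when the tiles were moved by 1000 bp or more. The coordinates below are therefore those of GRCm38. Across the 9 libraries 7213 to 10464 tiles were at 0, the most in control 1, which also lay farthest from the tile means with an SD of 6.08 points, against 4.94 to 5.94 points in the other libraries. With control 1 left out, limma still called 0 tiles. To check the unlabelled tissue, promoters were measured for 14 of 17 genes with a maternal imprint that is absent in sperm. Their means over 9 libraries ran between 3.70 and 63.2%, with 12 of the 14 over 25%, while Grb10 and Inpp5f were under 10%. Snrpn and Snurf share the same tiles and count as 2 of these. Tiles within 1 kb of any listed start were used, and whether they lie in the imprinted region of each gene was not checked. Promoters of germ cell genes were over 25% in 15 of 15 measured, of 19 listed, with means between 33.03 and 92.4%. A promoter with 1 tile was enough for this check. Of the imprinted genes Peg3 and Mest had 1 tile, as did the germ cell genes Ddx4, Mael, Dpep3, Tdrd1, Brdt, Mov10l1 and Tex19.1. Elf5 and Tdgf1, given below, also had 1 tile. Averaged per library, the promoters of the imprinted genes lay between 39.9 and 42.2% in the high libraries and between 35.96 and 42.3% in the control libraries. The germ cell promoters lay between 58.8 and 59.7% in the high libraries and between 55.5 and 60.4% in the control libraries. Of the trophoblast genes, Elf5 was at 44.3%, Ascl2 at 13.4% and Cdx2 at 2.00%, and of the embryo genes Pou5f1 was at 36.7% and Tdgf1 at 41.1%. Of 3 markers of liver, heart muscle and blood, 0 had a promoter tile. Nothing in the labels says that the columns came from separate animals, so every p-value below measures the spread between these libraries only.

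Promoter tiles whose letters were known and whose high libraries all lay on the same side of the control libraries are shown first, because they show the DNA behind the values. Of 7707 tiles lying wholly upstream of a gene start, 12 (0.156%) had all 3 high values above all 3 control values with means at least 10 points apart, and 6 (0.0779%) had them below by as much. Over all tiles these shares were 0.729% and 0.394%. The 7 shown are a selection made after their values were seen, and the last line is a CpG island tile for contrast. Letters are those of the plus strand, 5′ to 3′, from RefSeq (GRCm38.p6), and the capitals mark each CpG.
Tnk2: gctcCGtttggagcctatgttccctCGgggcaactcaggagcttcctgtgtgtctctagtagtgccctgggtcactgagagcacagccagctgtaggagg
S100z: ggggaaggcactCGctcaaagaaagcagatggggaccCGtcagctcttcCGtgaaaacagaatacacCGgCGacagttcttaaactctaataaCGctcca
Ckm: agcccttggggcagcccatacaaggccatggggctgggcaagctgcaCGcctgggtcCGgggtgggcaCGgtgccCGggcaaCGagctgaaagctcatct
Adora1: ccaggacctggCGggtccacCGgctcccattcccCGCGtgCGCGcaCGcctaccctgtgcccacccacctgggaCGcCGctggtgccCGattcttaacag
Fam20a: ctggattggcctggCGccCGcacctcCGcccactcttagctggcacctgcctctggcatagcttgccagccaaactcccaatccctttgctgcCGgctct
Crocc: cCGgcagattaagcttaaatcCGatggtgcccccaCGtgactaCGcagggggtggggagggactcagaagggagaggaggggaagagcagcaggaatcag
Hhex: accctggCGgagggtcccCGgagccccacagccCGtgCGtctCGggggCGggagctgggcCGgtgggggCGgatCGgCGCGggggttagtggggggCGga
Fzd10: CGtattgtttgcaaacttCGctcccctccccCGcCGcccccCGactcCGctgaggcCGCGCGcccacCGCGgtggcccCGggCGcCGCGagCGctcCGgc

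The tile upstream of Tnk2, a tyrosine kinase bound by Cdc42, holds 2 CpGs (chr16:32673001-32673100) and was at 63.6, 66.0 and 66.7% in the high libraries, against 50, 51.7 and 48.4% in the control libraries. The tile of S100z, a calcium-binding protein, holds 6 (chr13:95478701-95478800) and was at 64.6, 63.4 and 70.3% in the high libraries and at 53.9, 53.8 and 58.7% in the control libraries. Both are partly methylated stretches. The tile of Ckm, the creatine kinase of muscle, holds 5 (chr7:19410901-19411000) and was at 75.5, 75.9 and 75.6% in the high libraries, against 64.1, 73.4 and 55.7% in the control libraries. The tile of Adora1, the adenosine A1 receptor, holds 10 (chr1:134235001-134235100) and was at 28.4, 29.2 and 30.1% in the high libraries, against 0, 16.7 and 21.8% in the control libraries. In both of these the high libraries lay close together and the controls were spread out.

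Fam20a, a pseudokinase of enamel formation, had a tile with 4 CpGs (chr11:109722301-109722400) at 28.1, 21.3 and 17.3% in the high libraries and at 33.3, 30.1 and 40% in the control libraries. Crocc, which encodes rootletin of the ciliary rootlet, had a tile with 4 CpGs (chr4:141053701-141053800) at 58.6, 62.5 and 52.2% in the high libraries and at 77.6, 63.6 and 73.3% in the control libraries. For Hhex, a homeobox factor of the anterior endoderm and of blood, a tile with 12 CpGs (chr19:37434601-37434700) was at 5.34, 3.55 and 4.86% in the high libraries, against 8.29, 13.7 and 30.6% in the control libraries. Control 3 lay farthest from the high libraries at Hhex, and the low columns of that tile were at 3.39, 9.09 and 11.9%. The Fzd10 tile (chr5:128601001-128601100), with 17 CpGs upstream of a Wnt receptor, was at 1.39, 0 and 0.568% in the high libraries and at 0.862, 0.450 and 0.379% in the control libraries, so the groups overlapped.

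Mean methylation over all tiles did not separate the groups. It was 35.94, 36.07 and 35.91% in the high libraries, against 35.24, 35.67 and 36.06% in the control libraries, a mean of 35.97 ± 0.0814% in the high group and of 35.66 ± 0.411% in the control group (SD, n = 3 each). The difference was 0.316 points, with control 3 inside the range of the high libraries (exact two-sided permutation test, p = 0.3). It was 0.108 points without control 1, and without control 3 it was 0.519 points with groups that did not overlap. With 20 splits of 6 libraries the smallest p that such a test can give is 0.1. The high libraries lay close together in this mean and the controls were spread more widely. The medians over tiles at 10 to 90% differed by 1.11 points (exact permutation p = 0.3) and this is more than any difference in mean given below by class, position or chromosome.

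By level, the gap between the means was widest in partly and mostly methylated tiles and near 0 in unmethylated ones, and it did not exceed the spread of the controls in any class. Tiles were sorted by their mean over all 9 libraries into 5 classes. The class under 10%, with 54972 tiles, averaged 3.34% in the high group and 3.34% in the control group. The 21759 tiles at 10 to 30% averaged 17.25% in the high group and 17.45% in the control group. In the 28221 tiles at 30 to 70% the mean was 54.34, 54.57 and 54.08% in the high libraries, against 52.60, 53.57 and 54.62% in the control libraries. In the 30826 tiles at 70 to 90% it was 80.74, 80.97 and 80.21% in the high libraries, against 78.67, 79.73 and 80.81% in the control libraries. That is a difference of 0.735 points at 30 to 70% and of 0.903 points at 70 to 90%, and in both classes control 3 lay within or above the high libraries. The 5473 tiles at 90% and over averaged 92.00% in the high group and 91.85% in the control group. The exact permutation p was between 0.3 and 1 over the 5 classes (adjusted 0.875 to 1), and the groups overlapped in every class. Without control 3 the groups no longer overlapped in 3 of the 5 classes.

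**Figure D1:**
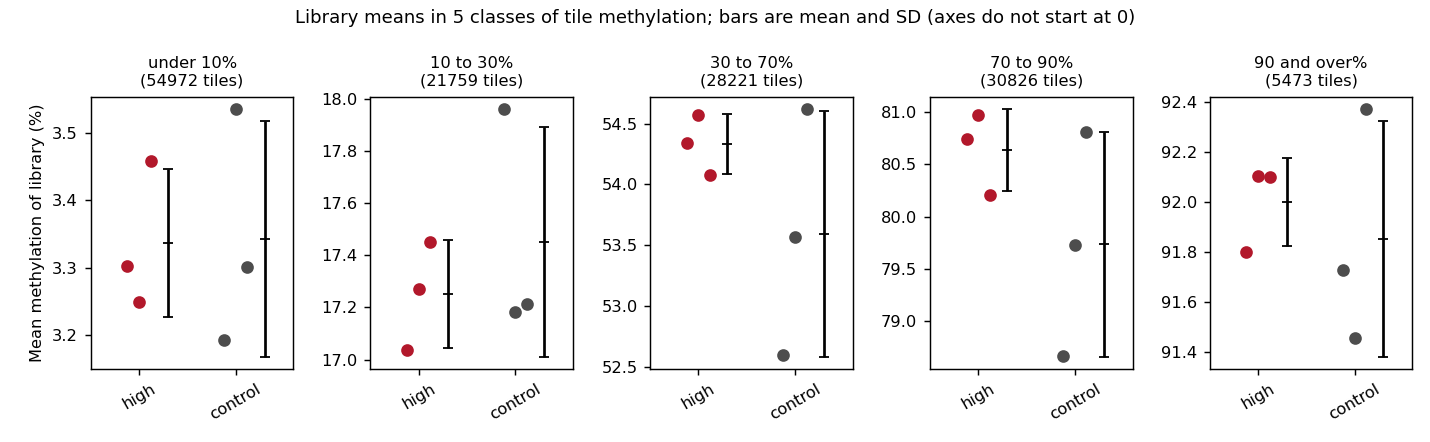
Mean methylation of each library in 5 classes of tiles, sorted by their mean over 9 libraries (points, 1 per library, with the mean and SD of 3 libraries beside them, y axes in percent and not starting at 0). In the classes at 30 to 70% and 70 to 90% control 1 is the lowest library and the range of the controls covers or overlaps that of the high libraries.

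Where a tile lies followed the same division. Within 1 kb of a gene start, 52900 tiles averaged 9.84% in the high group and 9.85% in the control group. Elsewhere inside genes, 63239 tiles averaged 50.93% in the high group and 50.51% in the control group, and outside genes 25112 tiles averaged 53.36% in the high group and 52.62% in the control group. The differences were -0.012, 0.420 and 0.745 points, the groups overlapped in all 3 positions, and the exact permutation p was 0.8, 0.3 and 0.3 (adjusted 0.8, 0.45 and 0.45). Without control 3 the groups did not overlap in 2 of the 3 positions, and without high 3 in 1. Gene starts came from the RefSeq promoter table, which lacks some genes, so some tiles at starts are counted in the other positions.

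CpG density at gene starts went with low methylation in both groups. The 5183 tiles with 10 or more CpGs in their letters averaged 4.62% in the high group and 4.71% in the control group. Those with 5 to 9 (4355 tiles) averaged 7.64% in the high group and 7.63% in the control group, and those with 1 to 4 (1096 tiles) averaged 20.19% in the high group and 20.03% in the control group. None of the 3 density groups separated high from control libraries (exact permutation p = 0.3, 0.7 and 0.3, adjusted 0.45, 0.7 and 0.45).

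No chromosome stood apart. On the 19 autosomes the high mean was above the control mean by 0.261 to 0.399 points, the least on chromosome 7 and the most on chromosome 10, and the groups overlapped on all 21 chromosomes (exact permutation p between 0.2 and 0.6, adjusted 0.467 to 0.6). Chromosome 7 showed how close the high libraries were, at 35.37, 35.38 and 35.39%, against 34.73, 35.14 and 35.49% in the control libraries. The sex chromosomes varied most. The X averaged 34.36, 35.30 and 33.49% in the high libraries and 32.03, 35.02 and 33.73% in the control libraries, and the 71 tiles of the Y averaged 74.08, 72.82 and 73.30% in the high libraries and 70.60, 72.75 and 74.45% in the control libraries. Without high 1 the groups did not overlap on 1 chromosome, and without control 3, the highest control on every autosome, they did not overlap on 20 of 21.

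Gene starts on the X, where silencing of an X in female cells adds methylation, are shown on their own because the X varied more than the autosomes. Starts on other single chromosomes were not measured separately. The 713 tiles within 500 bp of X-linked starts averaged 14.09, 15.94 and 12.81% in the high libraries, against 11.71, 16.18 and 13.58% in the control libraries. The 41337 tiles at other starts averaged 8.46% in the high group and 8.49% in the control group. The X starts thus spread over several points within each group, with groups that overlapped (exact permutation p = 0.8). The share of this spread in the X-wide values was not tested.

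**Figure D2:**
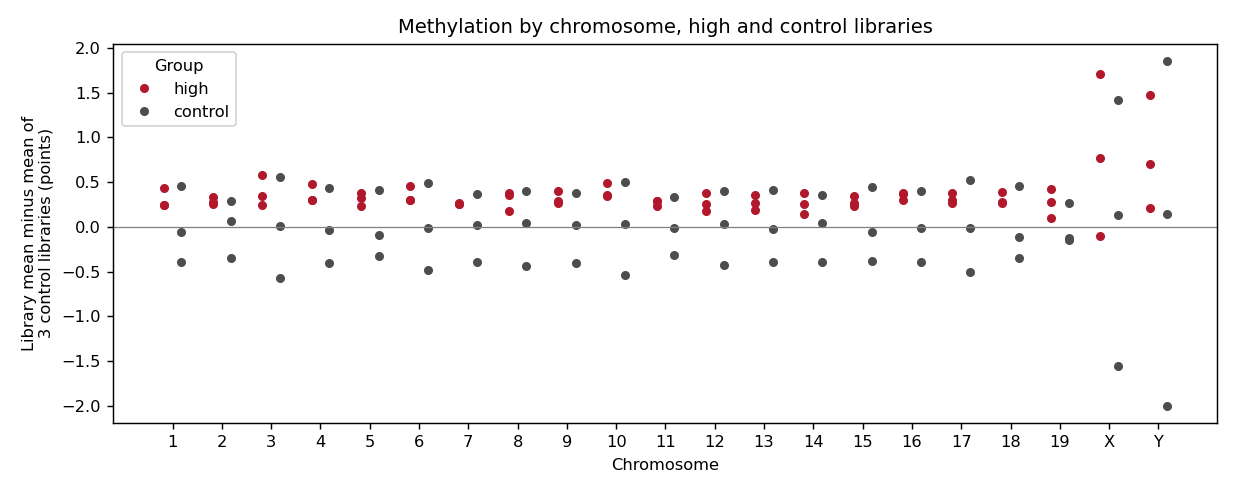
Mean methylation of each high and control library on each chromosome, as the difference in points from the mean of the 3 control libraries (1 point per library). On every autosome the 3 high libraries lie above 0 and within the range of the controls or near its upper end, reaching past it farthest on chromosome 19, and the X and Y have the widest spread.

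Single tiles varied between libraries of a group by more than most differences between the groups. The median SD of a tile was 2.31 points among the high libraries and 2.59 points among the control libraries, and in the class at 30 to 70% it was 4.99 points in the high group and 5.40 points in the control group. The median size of the difference between group means was 1.44 points, and the 5th and 95th percentiles of the difference were -5.40 and 6.59 points. Of the 141251 tiles, 0 (0.0%) were called by limma at an adjusted p under 0.05, and the lowest adjusted p was 0.190. At an unadjusted p under 0.05, limma gave 6270 tiles (4.44%), 3733 higher (2.64%) and 2537 lower (1.8%). Thus 59.5% of them were higher. With each library centred on its median over partly methylated tiles the share was 31.9% (2074 higher and 4434 lower). Centring takes the same amount off every tile of a library, and these medians were 1.11 points apart between the groups. It thus lowered the high group relative to the controls also in tiles under 10%, whose group means differed by -0.006 points. The centred split therefore cannot tell the direction.

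Tiles far apart were mostly partly methylated. All 3 high values lay above all 3 control values in 7288 tiles (5.16%) and below them in 5744 (4.07%), together 9.23% of all tiles. Of the 20 splits of 6 libraries, a share of 0.1 parts untied values in this way, either up or down. That share is the reference for tiles, and for promoters, gene bodies and windows below. With means at least 10 points apart as well, 1030 tiles were higher (0.729%) and 556 lower (0.394%). The class at 30 to 70% held 579 of the higher and 316 of the lower tiles, the class at 70 to 90% held 367 and 139, and the class under 10%, the most numerous, held 7 and 5. By position, 0.306% of tiles near gene starts were so far apart (89 higher, 73 lower), 1.36% of those elsewhere in genes (554 higher, 309 lower) and 2.23% of those outside genes (387 higher, 174 lower). Over chromosomes the share ran between 0.923 and 1.31% on the autosomes and was 1.92% on the X. Differences of 20 points or more between means were seen in 38 tiles upward and 32 downward. With any 1 library of the 6 left out, which asks less of a tile, 1638 to 2618 were higher and 1092 to 1434 lower. Adjacent tiles shared little of their difference: over 63917 pairs of neighbours the Pearson correlation of the differences was 0.124, across tiles that share libraries.

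**Figure D3:**
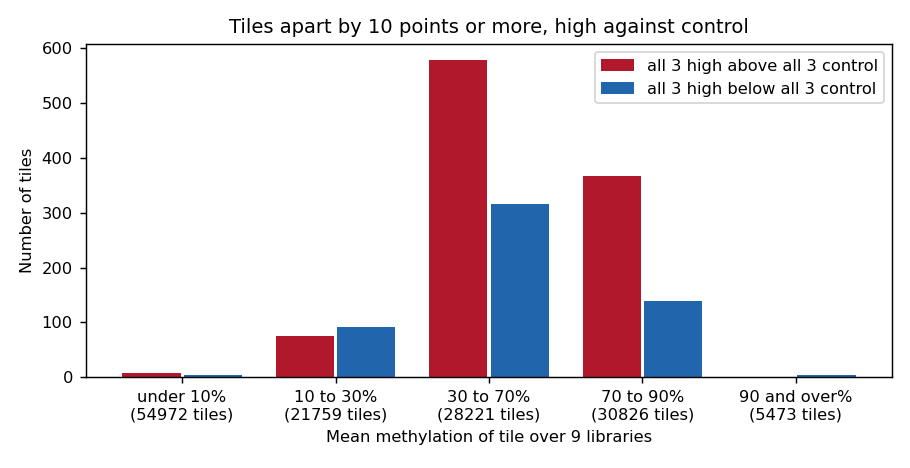
Number of tiles (y axis) whose 3 high values all lie above (red) or below (blue) all 3 control values with group means at least 10 points apart, by the mean methylation of the tile (x axis). The class at 30 to 70% has the most, with 579 higher and 316 lower tiles.

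The 10 tiles with the smallest p among those at least 10 points apart, 5 in each direction, had groups that did not overlap, and none passed. The largest difference among them lay 7477 bp from Gm40109, a long noncoding RNA gene (chr3:101494401-101494500), at 74.6, 73.1 and 71.4% in the high libraries, against 52.7, 51.3 and 56.5% in the control libraries. The difference was 19.5 points (SE 1.64, limma adjusted p = 0.266), and the low columns, at 71.5, 68.6 and 68.3%, stood near the high ones. Near Gm31880, also noncoding (chr3:98943701-98943800), the tile was at 85.5, 89.5 and 87.0% in the high libraries and at 77.2, 75.8 and 76.5% in the control libraries. Each of these lies outside genes.

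A tile 1889 bp from Scgb2b18, a secretoglobin gene (chr7:33175701-33175800), was at 69.6, 69.4 and 65.2% in the high libraries, against 55.2, 54.9 and 54.5% in the control libraries. Inside Plag1, a zinc finger factor that promotes growth (chr4:3918201-3918300), the values were 70.2, 71.1 and 68.4% in the high libraries and 56.0, 56.2 and 58.7% in the control libraries. Inside Thegl (chr5:77054501-77054600) they were 58.7, 62.7 and 58.9% in the high libraries and 47.2, 49.5 and 44.5% in the control libraries. In Plag1 and Thegl the low columns again lay with the high ones, between 59.5 and 69.2%, whereas near Scgb2b18 they lay closer to the controls, at 57.1, 56.2 and 60.0%.

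Among the lower tiles that of Cadps2, which primes dense-core vesicles for secretion, had the smallest p. It lies inside the gene 529 bp from its start (chr6:23839901-23840000) and was at 3.27, 5.65 and 2.27% in the high libraries, against 16.5, 15.8 and 16.5% in the control libraries (difference -12.6 points, SE 0.944, limma adjusted p = 0.190). The low columns were at 4.11, 5.04 and 4.21%, so all 6 libraries of the dose groups lay below all 3 controls. A tile 191977 bp from Gm42340, a noncoding gene (chr4:142853801-142853900), was at 52.9, 55.5 and 55.3% in the high libraries, against 66.7, 65.0 and 68.0% in the control libraries. Its low columns, at 54.1, 55.8 and 56.6%, were again with the high ones.

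Inside C2cd6, a gene of the sperm flagellum (chr1:59016201-59016300), the tile was at 49.3, 42.9 and 47.2% in the high libraries, against 62.5, 62.1 and 64.1% in the control libraries. Inside Plxna1, a semaphorin receptor (chr6:89359901-89360000), it was at 79.0, 83.3 and 82.2% in the high libraries, against 92.9, 95.3 and 94.4% in the control libraries. Inside Gpc6, a heparan sulfate proteoglycan (chr14:117903201-117903300), it was at 80.7, 77.8 and 77.1% in the high libraries, against 92.1, 90.9 and 88.9% in the control libraries. For Plxna1 and Gpc6 the low columns lay between the groups, at 86.7, 87.6 and 91.4% and at 82.1, 87.2 and 85.7%. The low columns are set against the same controls, so where they lie with the high ones the 2 comparisons are not independent. Over these 10 tiles the limma adjusted p ran between 0.190 and 0.747.

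Another pair of loci is given because it was called under a single alternative fit and not in the others. A tile inside Rnf216, a ubiquitin ligase gene, 670 bp from its start (chr5:143112301-143112400), was at 8.97, 9.52 and 8.67% in the high libraries, against 0, 0.746 and 0% in the control libraries, and at 0.794, 0 and 0.840% in the low columns. Its difference of 8.80 points had a limma adjusted p of 0.190, and of 0.00209 when limma let the spread depend on the level, the fit that also called Cadps2 (0.0326). Over 14 alternatives the adjusted p for Rnf216 ran up to 0.900, and over 15 for Cadps2 up to 0.99997. The high libraries were near 9% there and the other 6 libraries near 0.

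At the start of Dcbld2, a transmembrane receptor related to neuropilins, a tile with 17 CpGs 15 bp from the start (chr16:58408501-58408600) was at 9.03, 10.3 and 9.18% in the high libraries, against 47.6, 10.7 and 46.2% in the control libraries. The low columns were at 11.8, 8.62 and 12.1%. Controls 1 and 3 alone were high, and the limma adjusted p was 1 with all libraries and 0.0114 without control 2. The 4 tiles within 1 kb of this start, which Dcbld2 shares with the noncoding gene 4930461C15Rik, averaged 8.10, 7.79 and 7.29% in the high libraries and 16.7, 7.63 and 16.7% in the control libraries, and without control 2 they were called in the same way (limma adjusted p = 0.00296). Over its alternatives the adjusted p ran up to 1 for the tile and for the shared promoter.

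**Figure D4:**
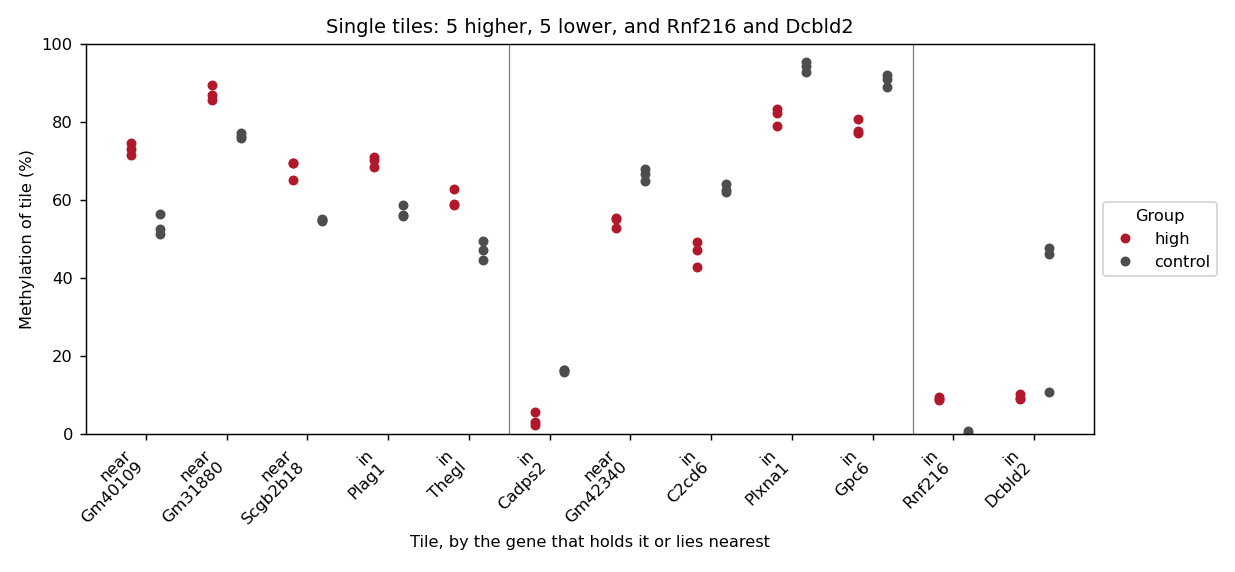
Methylation in percent (y axis) of the 10 tiles with the smallest p among those 10 points or more apart, 5 higher (left) and 5 lower (middle), and of the Rnf216 and Dcbld2 tiles (right), with 1 point per library. High and control libraries do not overlap in the first 10, and control 2 of Dcbld2 lies with the high libraries.

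No run of neighbouring tiles met the rule of 3 or more tiles, each 10 points or more apart and without overlap. With 5 points in place of 10, 2 runs did. The longer one lay inside Gata2, a zinc finger transcription factor of blood stem cells and trophoblast giant cells, 1086 to 1586 bp past the second of its listed starts (chr6:88199701-88200300). Its 4 tiles averaged 44.7, 48.1 and 40.2% in the high libraries, against 27.3, 33.6 and 34.98% in the control libraries, a difference of 12.4 points, and 29.3, 32.5 and 34.6% in the low columns. The high libraries were thus above all 6 others in this average. The tile at its upstream end was at 31.3, 36.1 and 26.9% in the high libraries and at 20.9, 22.6 and 21.6% in the control libraries, and the widest difference was at 63.2, 60.0 and 53.4% in the high libraries, against 35, 41.2 and 48.5% in the control libraries. A further tile inside the same stretch overlapped between the groups (32.9, 31.6 and 42.05% in the high libraries, 28.6, 30.1 and 33.6% in the control libraries) and is not a member of the run.

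The tile next to the run on its upstream side, at 986 bp, lay in the same direction by a smaller amount, at 9.54, 13.8 and 10.4% in the high libraries, against 7.14, 8.25 and 8.89% in the control libraries. At 14 bp from the second start the tile was at 6.74, 7.48 and 8.32% in the high libraries and at 5, 7.21 and 8.10% in the control libraries. Just past the run, at 1686 bp, it was at 39.6, 45.3 and 35.9% in the high libraries and at 37.2, 44.4 and 42.9% in the control libraries, so the groups overlapped at both. The run was selected from these same values and has no test of its own.

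**Figure D5:**
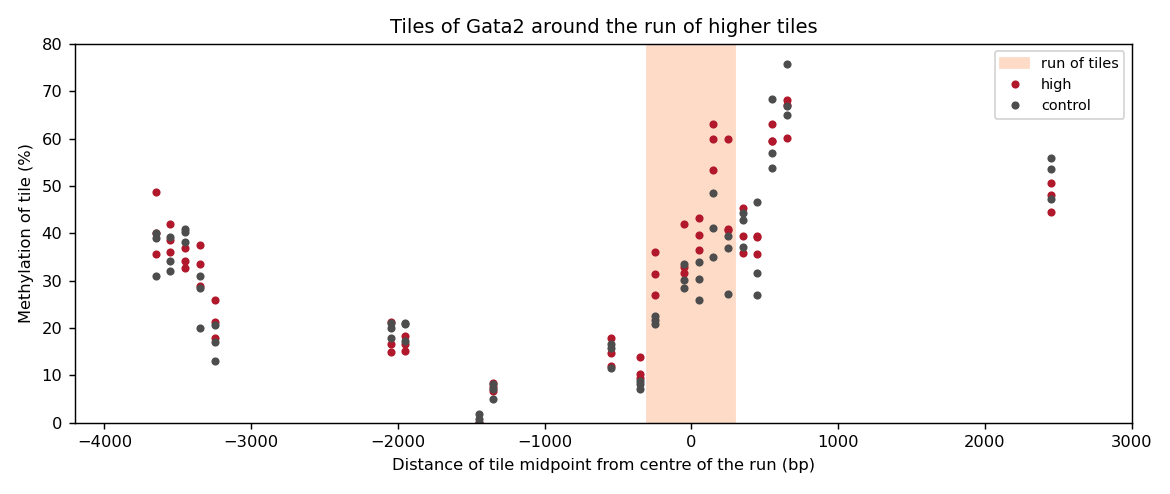
Methylation in percent (y axis) of tiles of Gata2 by distance of the tile from the centre of the run in bp (x axis), 1 point per library, with the stretch spanned by the run shaded. Within the shaded stretch the high libraries lie above the controls in 4 of its tiles, and outside it the groups mostly overlap.

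The other run lay inside Tmprss9, a transmembrane serine protease gene (chr10:80889201-80889700), where 3 tiles averaged 62.3, 60.6 and 59.7% in the high libraries, against 69.0, 72.5 and 72.0% in the control libraries, a difference of -10.3 points. With 10 points and 2 tiles, 17 runs were found, 11 higher and 6 lower, of which 12 lay inside genes and 0 within 1 kb of a listed start. The largest difference among the higher ones lay in Cntnap2, a neuronal adhesion protein (chr6:45833601-45833800), at 78.8, 78.7 and 89.0% in the high libraries, against 57.1, 69.0 and 62.3% in the control libraries. One 2211 bp from Glo1, the glyoxalase that clears methylglyoxal (chr17:30590601-30590900), was at 71.8, 68.3 and 69.96% in the high libraries, against 55.9, 52.6 and 56.4% in the control libraries. Both were wide gaps of partly to mostly methylated DNA.

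In Rxfp1, the relaxin receptor (chr3:79726701-79726900), the pair was at 75.9, 74.6 and 74.9% in the high libraries, against 61.8, 59.8 and 60.1% in the control libraries. The remaining higher pairs inside genes were in Gata2, as above, in Tacr2, a neurokinin receptor, in Rbfox3, the neuronal splicing factor NeuN, and in Piwil2, which binds piRNAs in germ cells, with differences of 10.4 to 15.03 points. All of these pairs lie over 1 kb from a listed gene start. The start of Piwil2 itself is not listed, the nearest listed one being that of Gm34757 at 737894 bp. How far the Piwil2 pair lies from the start of Piwil2 was therefore not measured. Of the lower pairs, that in Lck, a tyrosine kinase of T cells (chr4:129551701-129551900), was at 39.8, 32.2 and 35.6% in the high libraries, against 45.2, 52.8 and 65.5% in the control libraries. The pair in Gm36876, a noncoding gene (chr11:109011701-109011900), was at 24.7, 34.9 and 26.6% in the high libraries, against 63.5, 39.96 and 43.3% in the control libraries. In Trp53inp2, a protein of autophagy (chr2:155386501-155386700), it was at 52.4, 48.8 and 50.6% in the high libraries and at 64.0, 62.5 and 60.0% in the control libraries. The controls differed among themselves by over 20 points in Lck and Gm36876. The pairs in D430042O09Rik and in Gm36028 differed by -10.5 and -12.0 points.

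Averaging the tiles within 1 kb of a gene's starts gave 11228 promoters with at least 2 tiles, and 0 (0.0%) were called by limma. At an unadjusted p under 0.05, there were 430 (3.83%), 199 higher (1.77%) and 231 lower (2.06%). With centred libraries the split was 44 higher and 441 lower, after the same shift as for tiles. The groups did not overlap in 9.27%, with 4.5% higher and 4.77% lower. Over all promoters the mean was 10.20, 10.22 and 10.38% in the high libraries, against 10.21, 10.34 and 10.26% in the control libraries. Of the 4 promoters with the smallest p in each direction, Ssh3, a phosphatase that activates cofilin (2 tiles), was at 17.5, 16.02 and 17.04% in the high libraries, against 12.5, 14.0 and 11.1% in the control libraries (difference 4.31 points, SE 0.795, limma adjusted p = 0.9998). Shisa4 (2 tiles) was at 19.5, 15.9 and 16.1% in the high libraries, against 9.17, 12.2 and 10.99% in the control libraries. Both had the low columns near the controls.

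Washc2, a subunit of the WASH complex on endosomes, was at 18.1, 18.6 and 16.4% in the high libraries over 4 tiles, against 13.9, 15.3 and 13.4% in the control libraries. Myo1h, a class I myosin, was at 71.3, 68.2 and 73.7% in the high libraries over 2 tiles, against 65.5, 58.6 and 60.7% in the control libraries. Its difference of 9.45 points was the widest of the 8. Of the lower promoters, Fxyd6, a regulator of the sodium pump, was at 20.9, 20.5 and 23.99% in the high libraries over 7 tiles, against 26.6, 26.1 and 28.1% in the control libraries. Dctn1, the large dynactin subunit, was at 42.2, 44.3 and 43.4% in the high libraries, against 49.2, 49.8 and 46.5% in the control libraries. Both lay below in every high library by a few points. Tbc1d25, a regulator of Rab proteins on the X, was at 11.2, 12.4 and 11.6% in the high libraries, against 17.4, 15.4 and 16.3% in the control libraries. Lcat, which esterifies cholesterol in lipoproteins, was at 82.3, 85.0 and 82.6% in the high libraries, against 88.5, 87.1 and 86.3% in the control libraries. The groups did not overlap in these 8, which were picked for their small p, and the adjusted p was 0.9998 for each.

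Of 5139 gene bodies, 0 (0.0%) were called by limma. At an unadjusted p under 0.05 there were 225 (4.38%), 166 higher (3.23%) and 59 lower (1.15%), a split that turned to 52 higher and 163 lower with centred libraries. The groups did not overlap in 8.76% of bodies, with 6.15% higher and 2.61% lower. The unadjusted count was 267 higher and 52 lower without control 3, and 128 higher and 79 lower without control 1. Hrh1, the histamine H1 receptor (6 tiles), was at 62.1, 62.1 and 58.8% in the high libraries, against 54.3, 54.2 and 51.6% in the control libraries (difference 7.62 points, SE 1.33, limma adjusted p = 0.998). Elovl5, an elongase of polyunsaturated fatty acids (6 tiles), was at 88.5, 88.1 and 86.5% in the high libraries, against 83.6, 82.3 and 83.5% in the control libraries. Dip2a was at 91.7, 90.3 and 90.6% in the high libraries, against 85.0, 87.0 and 87.8% in the control libraries. In all 3 the low columns were also above the controls.

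Tacr2, which also held a pair of higher tiles, was at 57.3, 56.7 and 54.5% in the high libraries, against 50.03, 53.05 and 50.5% in the control libraries, with low columns at 54.1, 55.4 and 53.5%. Of the bodies with lower values, Egr2, a zinc finger factor of the hindbrain and of myelinating cells, was at 19.4, 22.9 and 19.3% in the high libraries over 4 tiles, against 28.2, 25.1 and 28.5% in the control libraries. Nadsyn1, an enzyme of NAD synthesis, was at 86.4, 85.8 and 86.2% in the high libraries, against 90.1, 89.5 and 91.9% in the control libraries. Here the low columns, at 90.7, 91.7 and 90.1%, were with the controls. Fcgrt, the neonatal Fc receptor, was at 53.3, 55.5 and 57.1% in the high libraries, against 59.7, 61.7 and 59.8% in the control libraries, and Ecd was at 74.7, 74.5 and 74.4% in the high libraries, against 78.4, 80.9 and 80.5% in the control libraries. The adjusted p was 0.998 for each of the 8.

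Of 1998 windows of 1 Mb, 0 (0.0%) were called by limma, with a lowest adjusted p of 0.382. At an unadjusted p under 0.05, there were 103 (5.16%), 95 higher (4.75%) and 8 lower (0.4%), and with centred libraries 14 higher and 90 lower. The groups did not overlap in 11.1% of windows, with 9.96% higher and 1.15% lower. The unadjusted count was 51 higher and 18 lower without control 1, and 209 higher and 6 lower without control 3. The window on chromosome 4 at 86 to 87 Mb, with 47 tiles, averaged 38.2, 37.9 and 38.4% in the high libraries, against 34.99, 36.1 and 36.1% in the control libraries. The genes with the most tiles in it were Adamtsl1, Rps6 and Dennd4c. The window on chromosome 6 at 144 to 145 Mb, which holds Sox5, a factor of cartilage and neurons, averaged 57.6, 56.6 and 56.0% in the high libraries, against 52.7, 53.6 and 53.2% in the control libraries. That on chromosome 3 at 45 to 46 Mb, around Pcdh10, a protocadherin outside the gene clusters, averaged 24.5, 23.6 and 25.0% in the high libraries, against 20.9, 19.3 and 22.3% in the control libraries. In the first 2 the low columns were above the controls as well, and around Pcdh10 they were at 21.2, 21.4 and 21.2%, near the controls.

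A further window, on chromosome 2 at 161 to 162 Mb with Ptprt and Chd6, averaged 49.8, 49.7 and 49.003% in the high libraries, against 46.1, 47.2 and 46.9% in the control libraries. The window with the smallest p of all lay on chromosome 1 at 173 to 174 Mb, with Cadm3 and the interferon-induced genes Aim2 and Ifi213. It averaged 29.9, 29.1 and 29.8% in the high libraries over 11 tiles, against 33.5, 33.6 and 31.9% in the control libraries (difference -3.42 points, SE 0.590, limma adjusted p = 0.382). Further lower windows differed by -1.45 points on chromosome 14 at 87 to 88 Mb and by -1.17 points on chromosome 5 at 69 to 70 Mb.

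Promoters of 13 gene lists that bear on the embryo, the germ line and DEHP were set beside all promoters, whose median difference was -0.013 points, with 5516 higher and 5712 lower. Of these lists 12 had promoters with at least 2 tiles, and limma called 0 in each. The counts at an unadjusted p under 0.05 and of groups without overlap stand against 3.83% and 9.27% of all promoters, as above. Of 31 imprinted genes 16 were higher and 15 lower, with a median of 0.114 points, and 2 were higher at an unadjusted p under 0.05. These were Snrpn and Snurf, a bicistronic pair whose promoter is methylated on the maternal copy, and they share the same 3 tiles, at 56.1, 48.5 and 38.3% in the high libraries, against 32.6, 26.7 and 41.8% in the control libraries. The difference was 13.9 points (SE 5.27, limma adjusted p = 0.9998), the widest upward one over all promoters, and the groups overlapped because control 3 was above high 3. Of the regions methylated on the paternal copy, 3 tiles upstream of Rasgrf1 averaged 50.02, 57.4 and 60.5% in the high libraries and 57.3, 52.5 and 52.6% in the control libraries, and 2 upstream of Meg3 averaged 59.7, 64.4 and 67.5% in the high libraries and 62.4, 62.3 and 49.1% in the control libraries. The region upstream of H19 had 0 tiles.

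Germ cell and meiosis genes, whose promoters are silenced by methylation in somatic cells, were the most methylated of the lists. The 14 measured averaged 45.9, 44.1 and 46.5% in the high libraries, against 43.4, 43.8 and 46.1% in the control libraries, with 9 higher and 5 lower and a median of 0.815 points. Asz1, a protein of the piRNA pathway, was at 76.6, 75.1 and 71.2% in the high libraries, against 66.1, 68.5 and 67.3% in the control libraries, without overlap (difference 7.03 points, SE 2.51, limma adjusted p = 0.9998). Slc25a31, the ADP/ATP carrier of the testis, was at 45.03, 40.5 and 48.7% in the high libraries and at 49.4, 49.4 and 47.2% in the control libraries.

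All promoters averaged 10.27% in the high group and 10.27% in the control group. The Hox and Cdx promoters averaged 11.2% in the high group and 11.6% in the control group. Those of streak and mesoderm averaged 11.8% in the high group and 11.9% in the control group. Of 17 Hox and Cdx promoters 6 were higher and 11 lower (median -0.192 points), and 0 were at an unadjusted p under 0.05. Hoxa13, of limb and tail, was at 8.04, 7.30 and 8.62% in the high libraries, against 9.57, 8.52 and 9.06% in the control libraries, and Hoxc4 at 8.38, 10.7 and 8.36% in the high libraries, against 8.77, 7.75 and 6.08% in the control libraries. Among 20 genes of streak and mesoderm the promoter was higher in 9 and lower in 11 (median -0.049 points). The 1 at an unadjusted p under 0.05 was T, which encodes Brachyury, at 12.1, 12.9 and 11.3% in the high libraries, against 15.5, 13.8 and 12.7% in the control libraries. Eomes, a T-box factor of the streak and of trophoblast, was at 8.93, 10.3 and 8.03% in the high libraries and at 9.07, 6.75 and 6.66% in the control libraries.

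Of 10 endoderm promoters 3 were higher and 7 lower (median -0.282 points), and 0 were at an unadjusted p under 0.05. The whole Hhex promoter, over 16 tiles, was at 5.43, 4.51 and 6.10% in the high libraries, against 6.77, 5.92 and 6.20% in the control libraries, a narrower gap than in the single tile printed above. Rbp4, the plasma carrier of retinol, was at 5.04, 2.51 and 3.69% in the high libraries and at 4.30, 5.06 and 5.89% in the control libraries. Of 12 neural plate and epiblast promoters 5 were higher and 7 lower, of 11 trophoblast promoters 3 were higher and 8 lower, and 0 were at an unadjusted p under 0.05 in either list. Pou5f1, which encodes the pluripotency factor Oct4, was at 37.4, 38.9 and 41.7% in the high libraries, against 37.4, 29.2 and 36.97% in the control libraries, without overlap by a margin of under 0.1 points. Zic5, a zinc finger factor of the neural plate, was at 10.9, 8.23 and 9.73% in the high libraries and at 5.46, 10.3 and 5.66% in the control libraries. Ets2, a factor of trophoblast, was at 7.05, 5.59 and 6.78% in the high libraries and at 5.14, 6.85 and 5.11% in the control libraries.

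Phthalates are known to act on PPAR nuclear receptors in rodent liver, and these lists showed small differences. Of 12 promoters of PPAR targets and fatty acid oxidation 4 were higher and 8 lower (median -0.122 points), with 1 in each direction at an unadjusted p under 0.05. Pex11a, which divides peroxisomes, was at 5.48, 4.73 and 4.30% in the high libraries, against 6.71, 6.51 and 6.52% in the control libraries (difference -1.74 points, SE 0.484, limma adjusted p = 0.9998). Acaa1a, the peroxisomal thiolase, was at 7.94, 8.41 and 7.56% in the high libraries, against 6.30, 7.29 and 7.27% in the control libraries. The groups did not overlap in either, and the list held 3 such promoters of 12 (25%), 1 higher and 2 lower. Of 22 promoters of nuclear receptors and of retinoid and steroid genes 12 were higher and 10 lower (median 0.043 points), and 0 were at an unadjusted p under 0.05. Ppara itself was at 5.39, 3.49 and 6.35% in the high libraries and at 3.45, 3.63 and 3.31% in the control libraries, and Rara, a retinoic acid receptor, at 12.9, 13.5 and 15.6% in the high libraries and at 14.99, 15.6 and 15.8% in the control libraries. Both pairs of groups overlapped.

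The enzymes that write and remove methyl groups on DNA and histones had unmethylated promoters. Of 30 measured, 13 were higher and 17 lower (median -0.065 points). Eed, a core subunit of the Polycomb complex PRC2, was at 2.36, 1.59 and 2.13% in the high libraries, against 3.20, 2.75 and 2.61% in the control libraries, and was the 1 at an unadjusted p under 0.05. Ehmt1, a histone methyltransferase, was at 2.91, 2.72 and 3.24% in the high libraries and at 1.75, 3.04 and 2.28% in the control libraries. All 6 values of each of the pair were under 4%. Of 28 promoters of Wnt, BMP, Nodal, FGF and Hedgehog signalling 11 were higher and 17 lower (median -0.063 points), with 0 at an unadjusted p under 0.05. The groups did not overlap in 3 of these (10.7%), 1 higher and 2 lower. The lower ones were Fzd10 (10.1, 10.2 and 9.81% in the high libraries, 10.7, 11.2 and 11.3% in the control libraries over 13 tiles) and Dkk1, a secreted Wnt inhibitor (3.23, 3.96 and 3.82% in the high libraries, 6.61, 4.90 and 4.25% in the control libraries). The clustered protocadherins had 0 of 57 promoters with the tiles required. Of 18 markers of other cell types 2 were measured, Krt5 of keratinocytes at 70.9, 60.4 and 69.1% in the high libraries, against 62.1, 66.8 and 69.0% in the control libraries, and Syn1 of neurons at 2.81, 9.77 and 1.04% in the high libraries, against 2.65, 8.61 and 2.59% in the control libraries.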

How the data were processed

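DNA methylation was measured by RRBS, and the authors deposited percent methylation for each tile of 100 bp, per the file headers, in 9 columns (3 high, 3 low, 3 control). Bismark, methylKit, Trim Galore, Bowtie2, SAMtools, TopHat, edgeR and Bowtie 0.12.2 are listed per the submitters' processing notes, beside the builds mm8 and mm10, and their roles are not given in the sources used here. The coverage minimum is not given in the sources used here, and without counts no coverage minimum or count model could be applied. A low coverage adds spread to single tiles, so averages over promoters, bodies and windows are more precise than tiles. The deposited expression table was not used here.

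Percentages were tested with limma 3.58.1 in R 4.3.3, without a variance trend, in 1 fit of 9 columns with 6 residual degrees of freedom, as high minus control, with Benjamini-Hochberg adjustment over all features and calls at an adjusted p under 0.05. The fit was first tested on simulated data. Library means were compared with exact two-sided permutation tests. Gene spans and starts (27025 genes with a start) are from RefSeq GRCm38.p6. Promoters are tiles within 1 kb of a start (at least 2), bodies are other tiles inside a gene (at least 3), and windows span 1 Mb (at least 10). In the check of the unlabelled tissue, promoters with 1 tile were also used. Exons and introns were not separated, because gene spans alone were used. In runs each tile starts at most 300 bp after the one before.

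Where nothing passed, the text names the 5 tiles per direction with the smallest p among those 10 points or more apart, the 4 promoters, bodies and windows per direction with the smallest p, up to 2 promoters per list, and all marker lists by count and range. Of the features so named, 1 window is not reported here, nor is 1 pair of lower tiles. Runs under looser rules, the printed start tiles, Rnf216 and Dcbld2 were picked with their values in view. The members and lists were chosen with earlier results of these data known. Column numbers gave no sign of pairing the libraries. Alternatives were the logit scale, a variance trend, high and control columns alone, level filters, centring, other widths and minimums, a replicate block and leaving out each library.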

Additional observations from a re-analysis of the deposited data

How the results depend on the processing

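Calls stayed at 0 for gene bodies and 1 Mb windows under each alternative run. For tiles the count was 2 with a mean-variance trend (Rnf216 and Cadps2) and ran between 0 and 1 when any 1 library was left out, and for promoters it ran between 0 and 2, the higher number coming without control 2 (Dcbld2, and with it 4930461C15Rik). The difference in mean methylation was 0.316 points and became 1.11 points as the difference of medians over tiles at 10 to 90%, and ran between 0.108 and 0.519 points with 1 high or control library left out. The number of sets whose groups did not overlap ran between 0 and 3 of 5 classes, between 0 and 20 of 21 chromosomes and between 0 and 2 of 3 positions when 1 library was left out, highest each time without control 3. Runs numbered 0, against 2 at 5 points and 17 with 2 tiles. The column number gave no sign of pairing the libraries (correlations of -0.033, -0.022 and -0.009 between deviations of same-numbered libraries, and in 0 of 3 pairs the best match). With it as a replicate block 0 tiles, 0 promoters, 0 bodies and 0 windows were called, with 4043 tiles higher and 2769 lower at an unadjusted p under 0.05. Of single features, 613 alternative values kept their direction and call and 6 reversed. Counted there were high and control columns alone, the logit scale (not for windows) and leaving out each library. The variance trend, which called Cadps2, was not counted there. Many of the 613 were fixed in advance. Leaving out low columns does not change a difference. Where groups do not overlap, leaving out a high or control library cannot reverse it. The 6 came when a library was left out: Krt5 (0.813 points with all) ran between -1.22 and 3.996 points and Syn1 (-0.075 with all) between -2.69 and 1.92 points, both with groups that overlap. Added after seeing the data were the leave-one-out counts of tiles 10 points or more apart, given above, either end of a gene in place of its listed start, which left 0 positions without overlap, and centred libraries for promoters, bodies and windows, which called 0 and turned the unadjusted splits as given above. For tiles the centred split was 31.9% higher, against 59.5%. Centring lowers the high group relative to the control group by the same amount in every feature, so these turned splits cannot tell the direction. Precision of single tiles is limited by a coverage that is not known.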
